A study of Homo sapiens with 30 samples.

Results

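The response of SF3B1 T1080I cells to pladienolide B (PB), set against the response of control cells, was taken from 12 of the 30 RNA-seq libraries of the series. The 12 libraries were chosen by their labels. They were 3 SF3B1 T1080I lines and 3 control cultures of eHAP FNLS cells, each treated for 3 h with 2 nM PB or with its solvent DMSO (n = 3 per genotype and treatment). eHAP is a haploid human line derived from HAP1, and FNLS is a cytosine base editor that cells of all groups carry. The SF3B1 T1080I libraries came from 3 independent monoclonal lines made with the same guide RNA, and the control libraries from 3 replicates of 1 line that had received a non-targeting guide RNA. The spread in SF3B1 T1080I is therefore one between clones, and the spread in control is one between cultures of 1 line. For each gene the response was the log2 change of PB over DMSO within a line or culture. Here a control culture means the PB and DMSO libraries of 1 replicate number, which the labels do not say came from a shared culture. The response difference was the SF3B1 T1080I response minus the control response. Above 0, SF3B1 T1080I cells held more of the transcript under PB, relative to their own DMSO level, than control cells did. The series was designed to ask how mutations linked to PB resistance act on pre-mRNA splicing, and the comparison addresses how far the drug still reached the transcriptome of the mutant.

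SF3B1 is the largest subunit of SF3b, the part of the U2 snRNP that holds the branch point adenosine while the spliceosome assembles on an intron. PB binds SF3b in a pocket formed by SF3B1 and PHF5A and keeps the branch point from being accommodated, so that introns are retained and exons are skipped. Transcripts spliced in such ways are often kept in the nucleus or degraded, and a gene-level count can therefore fall or rise under the drug without showing splicing itself. SUGP1, which carries a G-patch domain, binds SF3B1 and takes part in branch site recognition. The other genotypes of the series, also clones of eHAP FNLS cells given PB or DMSO in the same way, were PHF5A 2xTL, which carries a short in-frame insertion, SUGP1 E554K and SUGP1 G603N, with 6 libraries each.

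The edited position lies in the HEAT repeats of SF3B1, which surround the pocket. In GENCODE release 29 (hg38) the codon is at chr2:197398011-197398013 on the minus strand, in exon 22 of the 25 exons of the SF3B1 transcript used, whose reading frame has 1304 codons. The reference coding sequence of codons 1065 to 1095 is printed to show what the substitution T1080I changes, 5′ to 3′ in transcript sense with the edited codon in capitals, and it was read from the annotation and not from these libraries.
SF3B1 codons 1065 to 1095: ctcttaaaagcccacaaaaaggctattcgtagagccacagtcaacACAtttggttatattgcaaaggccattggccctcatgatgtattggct
The capitals mark a threonine codon, which is an isoleucine codon in the mutant lines per the labels. Gene counts do not show the edited base, so the genotype could not be checked from them.

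Total counts of the 12 libraries ran from 3.73e+07 to 6.41e+07, and 21940 to 26075 genes reached at least 10 counts. Mitochondrial transcripts took 10.1 to 12.8% of counts. Of 13 haematopoietic markers, 2 averaged at least 1 CPM (counts per 1000000, with library sizes scaled by TMM), and the summed level was 51.9 to 69.5 CPM in SF3B1 T1080I and 53.5 to 70.9 CPM in control. The summed level of 10 neural markers was 811 to 1052 CPM in SF3B1 T1080I and 706 to 1265 CPM in control, mostly from SOX2 (591 to 1132 CPM) and NES. Mesenchymal markers summed to 450 to 729 CPM in SF3B1 T1080I and 578 to 666 CPM in control, and epithelial markers to 29.3 to 57.4 CPM in SF3B1 T1080I and 31.6 to 46.6 CPM in control. PTPRC, which encodes the pan-leukocyte protein CD45, stayed at or below 0.4996 CPM and EPCAM at or below 0.700 CPM, and no listed marker was at 0 in all 12 libraries. No member of these 4 lists passed the test of the response difference.

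PB moved few genes in SF3B1 T1080I cells and many in control cells. At an adjusted p under 0.05 (edgeR, paired within each line, over 31444 tested genes), 5 genes changed with PB in SF3B1 T1080I (0.0159%), against 3095 in control (9.84%), where 809 were higher (2.57%) and 2286 lower (7.27%). With upper-quartile scaling the control split turned to 2575 higher and 1609 lower. The response difference passed for 597 genes (1.90%), with 522 above 0 (1.66%) and 75 below 0 (0.239%). The 522 genes had a median response of -0.04 in SF3B1 T1080I and -0.84 in control, and the 75 genes one of 0.08 in SF3B1 T1080I and 1.61 in control. In none of the 597 was the response larger in size in SF3B1 T1080I than in control, and the middle of the SF3B1 T1080I responses, between their 5th and 95th percentiles, spanned -0.29 to 0.20. The responses of the lines did not overlap those of the cultures for any of the 597, against 21.3% of all tested genes, and both facts follow in part from the choice of genes by this contrast. In RNA from a whole culture, fewer cells with a transcript and less of it per cell cannot be told apart. At an unadjusted p under 0.05 the difference passed for 3212 genes (10.2%) and PB in SF3B1 T1080I for 425 (1.35%). The latter share is below the threshold of 0.05 itself, so that test was cautious with the pooled spread. The 5 calls may therefore understate how many genes changed in SF3B1 T1080I.

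These counts depended on the number of lines and on the pairing. The difference passed for 243, 210 and 233 genes without SF3B1 T1080I line 1, 2 or 3, and for 395, 311 and 282 without control culture 1, 2 or 3. With a mean per group in place of the pairing it passed for 101 genes, all of them among the 597. The direction also depended on scaling, since 87.4% of the calls were above 0 with TMM and 58.8% with upper-quartile scaling (261 above and 183 below 0), which moved the median difference of all tested genes by -0.14. The median standard error of a response difference was 0.64 over all tested genes and 0.16 over those of at least 4 CPM, and the smallest difference that passed was 0.43 in size.

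**Figure D1:**
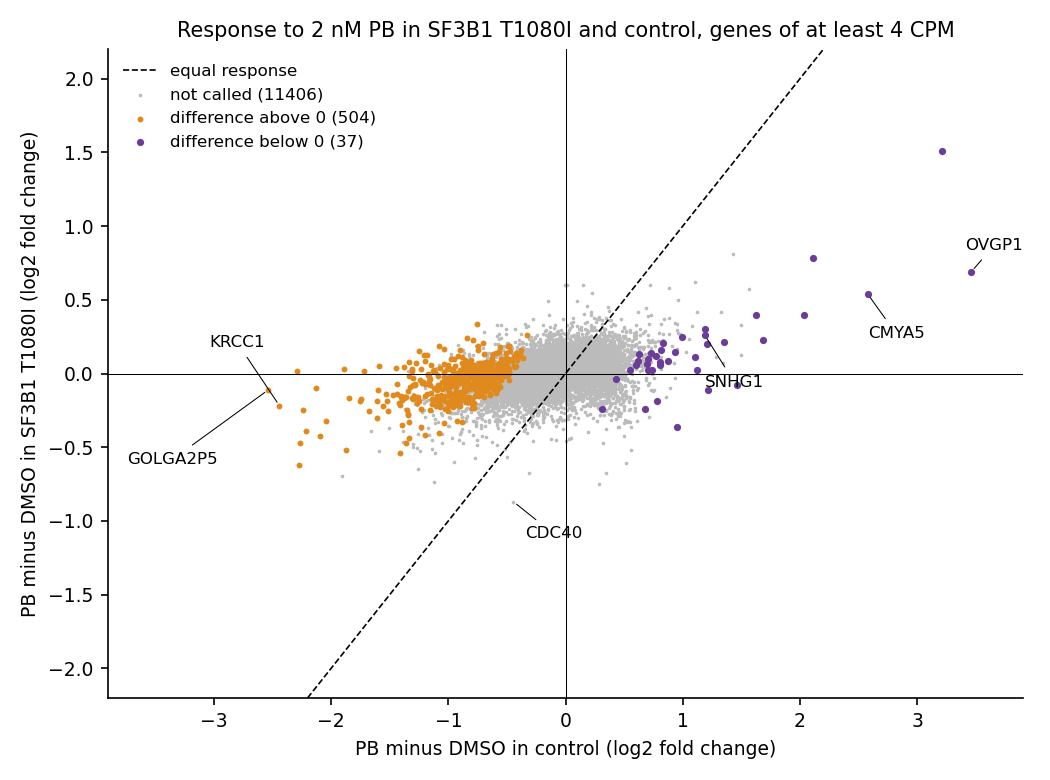
Log2 fold change of PB over DMSO in SF3B1 T1080I (vertical axis) against control (horizontal axis) for genes of at least 4 CPM, where orange and purple points passed the test of the response difference and the dashed line marks equal responses. Most called genes lie close to 0 on the vertical axis and well to one side of 0 on the horizontal axis, with ENSG00000269688 (1.51 in SF3B1 T1080I and 3.21 in control) among the exceptions.

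For these genes the genotypes lay further apart under PB than under DMSO, which follows in part from choosing them by the response difference. For the 522 genes above 0, the median of SF3B1 T1080I minus control was 0.80 under PB and -0.01 under DMSO. For the 75 below 0 it was -1.10 under PB and 0.34 under DMSO. Median responses of the same 522 genes were -0.11 in PHF5A 2xTL, -0.73 in SUGP1 E554K and -0.70 in SUGP1 G603N, and those of the 75 genes 0.02, 1.08 and 1.23 in that order of genotypes.

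Among the transcripts that SF3B1 T1080I cells kept under PB, GOLGA2P5 had the largest difference of those of at least 4 CPM. It is a transcribed pseudogene related to GOLGA2, which encodes a golgin (ENSG00000238105, chr12:100156357-100173659). It stood at 11.8, 14.5 and 13.1 CPM with PB and 13.97, 15.4 and 13.0 CPM with DMSO in the SF3B1 T1080I lines, against 1.53, 3.03 and 3.92 CPM with PB and 12.3, 14.7 and 20.8 CPM with DMSO in the control cultures. Every control PB library was below the other 9 libraries, and the 6 SF3B1 T1080I libraries overlapped each other. The response difference was 2.43 ± 0.22 (SE, adjusted p = 3.19e-07), from a response of -0.11 in SF3B1 T1080I and -2.54 in control.

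LINC01355, a long non-coding RNA (ENSG00000261326, chr1:23281308-23286752), was likewise lowest in the control PB cultures. Its level was 8.79, 8.92 and 8.70 CPM with PB and 8.95, 8.20 and 8.93 CPM with DMSO in SF3B1 T1080I, against 1.53, 1.78 and 1.69 CPM with PB and 7.10, 9.12 and 8.40 CPM with DMSO in control. The difference was 2.31 ± 0.30 (adjusted p = 6.07e-05).

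KRCC1, which encodes a lysine-rich coiled-coil protein (ENSG00000172086, chr2:88027205-88055729), had 13.1, 12.9 and 7.60 CPM with PB and 13.97, 12.7 and 11.5 CPM with DMSO in SF3B1 T1080I, against 2.53, 2.08 and 1.51 CPM with PB and 10.8, 11.7 and 10.2 CPM with DMSO in control. Line 3 was the lowest of the mutant lines under PB and still above every control PB culture. The difference was 2.22 ± 0.29 (adjusted p = 6.07e-05). RSKR, which encodes a kinase related to the ribosomal protein S6 kinases (ENSG00000167524, chr17:28607964-28614200), had 15.5 ± 0.82 CPM with PB and 18.5 ± 1.46 CPM with DMSO in SF3B1 T1080I, against 3.56 ± 0.43 CPM with PB and 16.8 ± 2.29 CPM with DMSO in control (mean ± SD, n = 3 each). Its difference was 1.99 ± 0.20 (adjusted p = 1.40e-06).

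NIPAL1, a member of the NIPA family of magnesium transporters, varied in level between clones. Its level was 7.33, 11.0 and 2.79 CPM with PB and 7.92, 12.4 and 2.77 CPM with DMSO in SF3B1 T1080I lines 1, 2 and 3, against 0.807, 1.11 and 1.28 CPM with PB and 5.79, 3.83 and 4.57 CPM with DMSO in control. Line 3 was lowest and line 2 highest in both treatments, while the responses of lines 1, 2 and 3 were -0.11, -0.17 and 0.01. The difference was 2.04 ± 0.35 (adjusted p = 0.00122) with the pairing and did not pass without it (adjusted p = 0.416).

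Below 4 CPM the differences of called genes reached 3.43 above 0 and 6.46 in size below 0. The other 7 of the 12 genes with the largest differences above 0 among called genes of at least 4 CPM had differences of 1.67 to 1.92. They were KLRA1P and RPL13P8 (pseudogenes), ENSG00000264112 (a long non-coding RNA), RBM26-AS1 (antisense to RBM26), ZNF653 (a zinc finger repressor of transcription), KLF15 (a Krüppel-like transcription factor) and KCNAB3 (a beta subunit of voltage-gated potassium channels). KLF15 had 10.1, 10.4 and 11.3 CPM with PB and 9.82, 12.9 and 13.2 CPM with DMSO in SF3B1 T1080I, against 3.28, 4.72 and 5.38 CPM with PB and 13.6, 14.9 and 19.3 CPM with DMSO in control. Over all 12 genes the response ran from -0.47 to 0.03 in SF3B1 T1080I, from -0.51 to 0.02 in PHF5A 2xTL, from -2.42 to -0.97 in the SUGP1 genotypes and from -2.54 to -1.72 in control. Reads of pseudogenes can be shared with near-identical copies, and reads of RBM26-AS1 and RBM26 cannot be told apart without a stated strand setting, so these values are uncertain. Of the 12 genes, 5 overlap another tested gene, namely RBM26-AS1, GOLGA2P5, NIPAL1, RSKR and ZNF653. Reads of such pairs may not be told apart, so the values of all 5 are uncertain.

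Among the transcripts that PB raised in control and not to the same degree in SF3B1 T1080I, OVGP1 had the largest difference of those of at least 4 CPM. OVGP1 reached that mean over the 12 libraries only through control PB (13.3 CPM on average). It averaged 1.92 CPM with PB and 1.24 CPM with DMSO in SF3B1 T1080I, and 1.22 CPM with DMSO in control. It encodes oviductal glycoprotein 1 (ENSG00000085465, chr1:111414314-111427777). Its level was 2.22, 1.47 and 2.07 CPM with PB and 1.498, 0.669 and 1.55 CPM with DMSO in SF3B1 T1080I, against 13.8, 12.5 and 13.5 CPM with PB and 0.817, 1.61 and 1.23 CPM with DMSO in control. All 3 mutant lines had a positive response (0.56, 1.09 and 0.41), and all 3 were below the 3 control responses (4.01, 2.92 and 3.41). The difference was -2.77 ± 0.39 (adjusted p = 0.000118), and the response of SF3B1 T1080I alone, 0.69 ± 0.28, did not pass (adjusted p = 1).

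CMYA5 encodes myospryn, found in cardiac and skeletal muscle (ENSG00000164309, chr5:79689877-79800240). CMYA5 too reached a mean of 4 CPM over the 12 libraries only through control PB. It had 2.67, 3.71 and 3.73 CPM with PB and 1.94, 2.34 and 2.66 CPM with DMSO in SF3B1 T1080I, against 11.7, 9.21 and 10.5 CPM with PB and 2.24, 1.89 and 1.21 CPM with DMSO in control. The difference was -2.04 ± 0.39 (adjusted p = 0.00402, or 0.0980 without the pairing). ENSG00000269688, annotated inside an intron of HNRNPL (chr19:38844729-38845499), was the gene of the 12 below 0 that also passed the test of PB in SF3B1 T1080I. Its annotation is in the sense of HNRNPL, so its reads cannot be told apart from unspliced HNRNPL transcripts, and its values are uncertain. It stood at 8.81, 10.7 and 10.5 CPM with PB and 3.57, 3.86 and 3.12 CPM with DMSO in SF3B1 T1080I, against 21.4, 23.8 and 27.1 CPM with PB and 2.19, 3.71 and 2.06 CPM with DMSO in control. Its response was 1.51 ± 0.24 in SF3B1 T1080I (adjusted p = 0.0110) and 3.21 in control, and the difference was -1.70 ± 0.34 (adjusted p = 0.00470).

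NOP14-AS1, antisense to NOP14 (ENSG00000249673, chr4:2934899-2961738), had 14.7, 13.9 and 15.9 CPM with PB and 11.7, 11.4 and 15.6 CPM with DMSO in SF3B1 T1080I, against 41.9, 41.9 and 44.2 CPM with PB and 16.1, 16.1 and 17.9 CPM with DMSO in control. ZFHX3-AS1, within the transcription factor gene ZFHX3, had 12.9 ± 1.14 CPM with PB and 12.6 ± 0.40 CPM with DMSO in SF3B1 T1080I, against 27.7 ± 1.42 CPM with PB and 12.8 ± 1.15 CPM with DMSO in control (mean ± SD, n = 3 each). Their differences were -1.14 ± 0.19 (adjusted p = 0.000872) and -1.09 ± 0.18 (adjusted p = 0.000981). In both, the control PB cultures stood above the other 9 libraries. Both genes overlap the gene they are named for, and their values are uncertain without a stated strand setting.

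The other 7 of these 12 had differences of -1.64 to -1.23. They were the processed pseudogene ENSG00000253667, RASL11A (a small GTPase of the Ras superfamily), IRF9 (the DNA-binding subunit of the interferon-activated factor ISGF3) and the unnamed genes ENSG00000289092, ENSG00000232611, ENSG00000264577 and ENSG00000279738. ENSG00000253667 and RASL11A averaged 8.99 and 7.92 CPM in control PB and below 4 CPM in every other group of the 2 genotypes. Of the 12, 8 overlap another tested gene, and reads of such pairs may not be told apart, so these values are uncertain. Leaving out a line or culture in turn ended the call of RASL11A for 3 of the 6, of IRF9, ENSG00000264577, ENSG00000279738 and ENSG00000289092 for 5, and of ENSG00000253667 for 1, with adjusted p up to 0.181, 0.172, 0.174, 0.189, 0.1503 and 0.0528 in that order. None of the other named genes of both sets of 12 lost its call in this way.

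**Figure D2:**
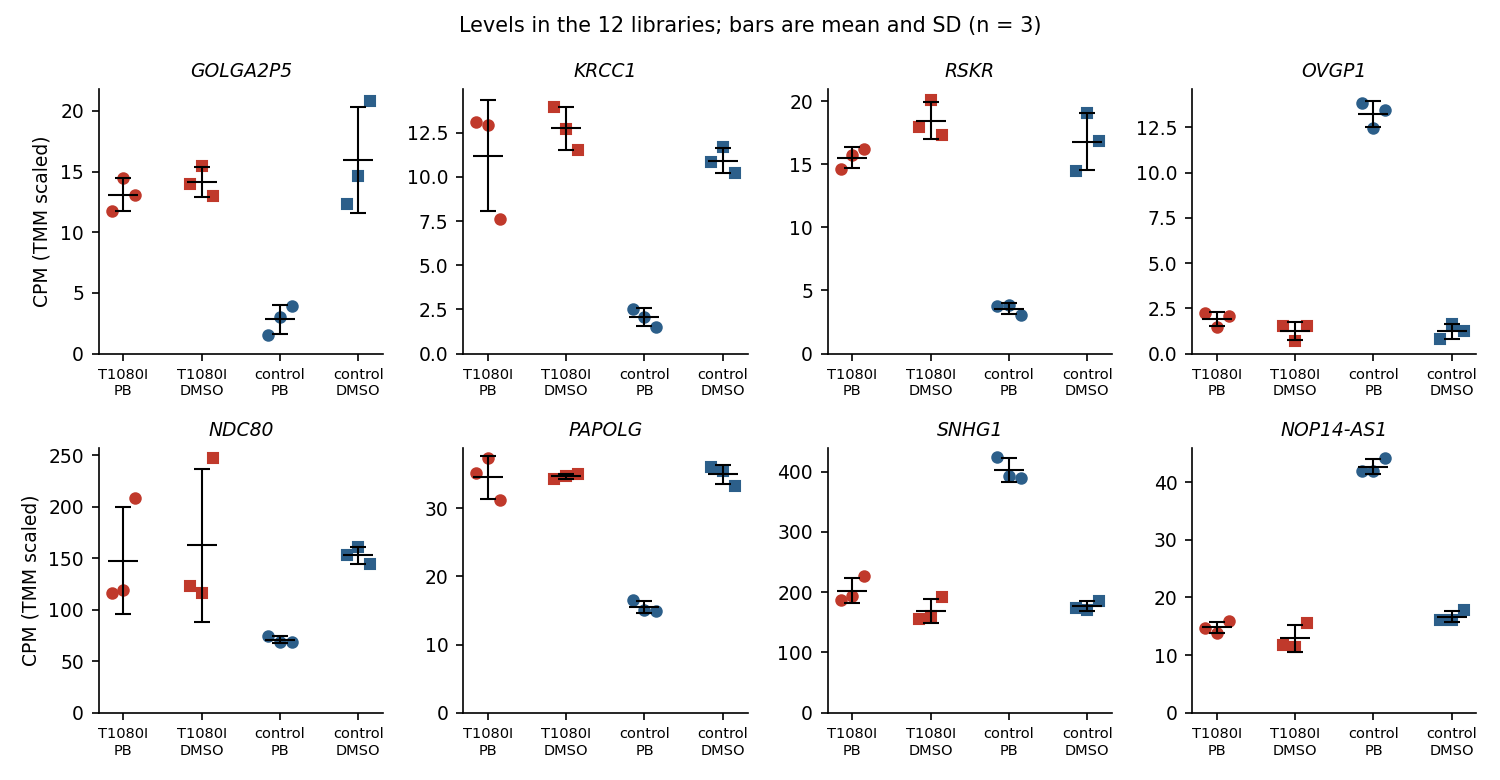
Level in CPM of 8 genes in the 12 libraries (points), with the mean and SD of each group of 3 (black bars), for SF3B1 T1080I with PB and DMSO in red and control with PB and DMSO in blue. In each panel the control PB cultures stand apart, at 1.53 to 3.92 CPM for GOLGA2P5 and 12.5 to 13.8 CPM for OVGP1, and the SF3B1 T1080I PB libraries lie close to their DMSO libraries.

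The 5 genes that changed with PB in SF3B1 T1080I itself were next described. CDC40, a second-step splicing factor (ENSG00000168438, chr6:110180141-110254275), fell to 18.3, 21.2 and 18.6 CPM with PB, against 33.6, 34.98 and 37.5 CPM with DMSO in the SF3B1 T1080I lines, and stood at 25.8, 21.8 and 26.1 CPM with PB and 35.3, 33.2 and 31.6 CPM with DMSO in control. The groups of PB and DMSO libraries did not overlap in either genotype. Its response was -0.87 ± 0.12 in SF3B1 T1080I (adjusted p = 0.00239) and -0.45 in control (adjusted p = 0.0138), and the difference of -0.42 ± 0.17 did not pass (adjusted p = 0.292, 95% interval -0.80 to -0.05). In PHF5A 2xTL its response was -0.80, and in SUGP1 E554K and SUGP1 G603N it was -0.40 and -0.32.

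PRPF39, a factor associated with the U1 snRNP, rose to 74.0, 78.8 and 74.4 CPM with PB, against 47.8, 49.3 and 55.3 CPM with DMSO in SF3B1 T1080I, a response of 0.58 ± 0.10 (adjusted p = 0.0123) beside one of 0.88 in control. SNHG5, which hosts small nucleolar RNAs in its introns, rose to 53.3, 68.1 and 60.3 CPM with PB, against 40.6, 37.3 and 39.8 CPM with DMSO in SF3B1 T1080I. In control it stood at 57.9, 58.9 and 59.0 CPM with PB and 27.6, 28.6 and 25.5 CPM with DMSO, so that the genotypes overlapped under PB and not under DMSO. Its difference was -0.48 ± 0.15 (adjusted p = 0.0926).

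MYOM1, which encodes the M-band protein myomesin 1, passed in both tests. Its level was 87.5, 56.7 and 109 CPM with PB and 125, 84.3 and 157 CPM with DMSO in SF3B1 T1080I lines 1, 2 and 3, against 42.9, 45.4 and 42.7 CPM with PB and 102, 117 and 131 CPM with DMSO in control. The lines differed in level and hardly in response (-0.52, -0.57 and -0.52), and the difference was 0.87 ± 0.13 (adjusted p = 0.00015, or 0.261 without the pairing). The fifth gene was ENSG00000269688, whose values are uncertain for the reason given above. Leaving out SF3B1 T1080I line 1, 2 or 3 left 0, 1 and 0 of such calls, and the 1 was CDC40, so this set rests on all 3 lines. Without the pairing 1 gene, again CDC40, passed.

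Genes that respond to PB were also chosen by their response in the SUGP1 E554K and SUGP1 G603N lines, so that the 12 libraries entered the choice only through the shared scaling, filter and estimate of the spread. In both of these genotypes 1514 genes fell with PB (4.81%) and 511 rose (1.63%). With upper-quartile scaling the split turned to 1146 lower and 1430 higher, and without SF3B1 T1080I line 1 or 3 the number higher was 316 or 325. Over the 1514 genes the median response was -0.07 in SF3B1 T1080I, -0.10 in PHF5A 2xTL and -0.59 in control, which corresponds to 95.4% of the DMSO level in SF3B1 T1080I and 66.5% in control. The lines of SF3B1 T1080I had medians of -0.12, 0.01 and -0.11, and the control cultures -0.54, -0.59 and -0.65, with no overlap. Over the 511 genes the median was 0.13 in SF3B1 T1080I, 0.03 in PHF5A 2xTL and 0.51 in control, with 0.12, 0.19 and 0.12 in the SF3B1 T1080I lines and 0.59, 0.53 and 0.43 in the control cultures.

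The response difference was above 0 in 99.3% of the 1514 genes (47.4% of all tested genes) and below 0 in 97.3% of the 511 (52.6% of all tested genes). It passed above 0 for 465 of the 1514 (30.7%) and below 0 for 59 of the 511 (11.5%), and in the opposite direction for none. Over all genes of at least 4 CPM the medians of the SF3B1 T1080I lines were -0.02, 0.10 and -0.02, so that each line was lower over the 1514 genes and higher over the 511. The SF3B1 T1080I response was below 0 in 1161 of the 1514 genes (76.7%, beside 51.2% of all tested genes) and above 0 in 459 of the 511 (89.8%, beside 48.8%). The median level was 30.7 CPM over the 1514 genes, 23.2 CPM over the 511 and 1.07 CPM over all tested genes. The shares of all tested genes are therefore not those of genes of like level. In SF3B1 T1080I itself 1 of the 1514 genes and 3 of the 511 passed the test of PB.

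**Figure D3:**
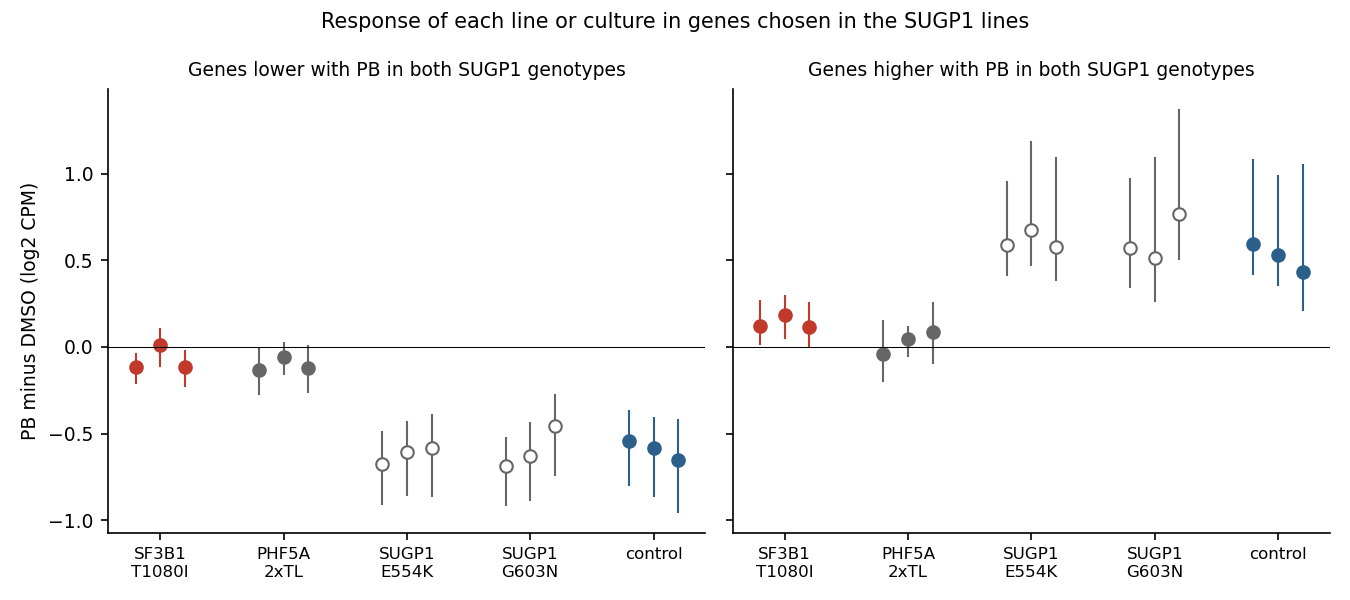
Median response (points) and quartiles (bars) of each line or culture, as log2 CPM with PB minus DMSO, over the 1514 genes lower with PB in both SUGP1 genotypes (left) and the 511 higher in both (right). Open circles mark the genotypes in which the genes were chosen, and the SF3B1 T1080I lines lie between -0.12 and 0.01 on the left, above the control cultures at -0.65 to -0.54.

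The size of the difference followed the size of the response in the SUGP1 lines. In the 125 genes of at least 4 CPM whose mean SUGP1 response was -1 or lower, the median response was -0.19 in SF3B1 T1080I and -1.22 in control, and 57.6% passed the test of the difference. From -0.5 to -0.25 (1882 genes) the medians were -0.03 in SF3B1 T1080I and -0.35 in control, and 4.36% passed. Above 1 (27 genes) they were 0.31 in SF3B1 T1080I and 1.29 in control, and 51.9% passed.

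**Figure D4:**
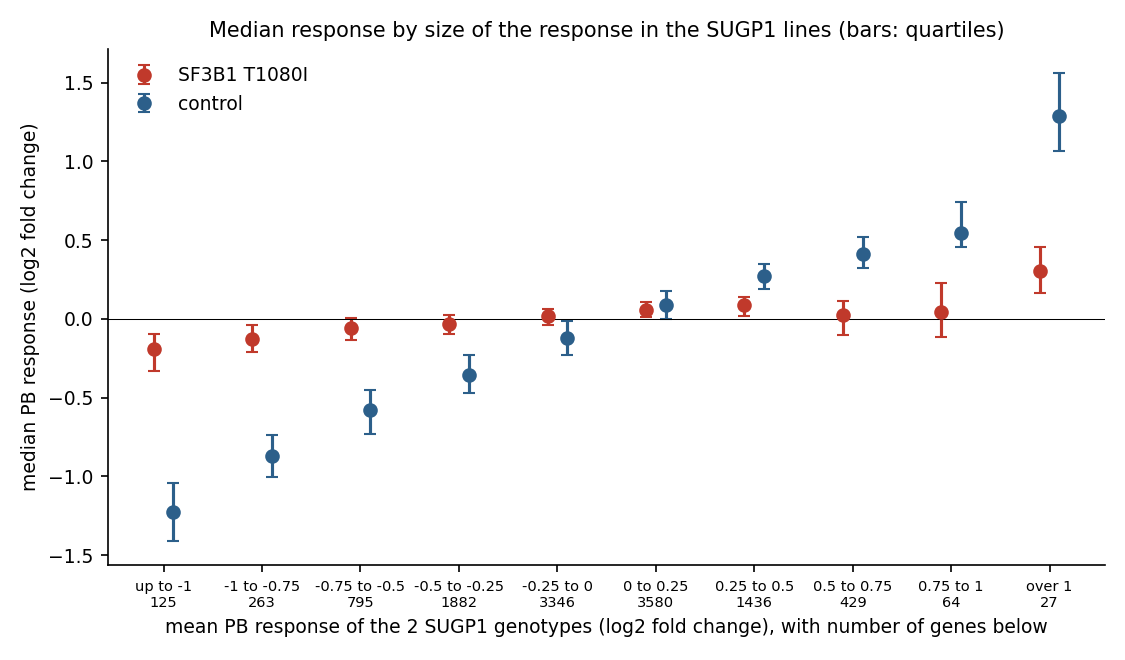
Median response to PB in SF3B1 T1080I (red) and control (blue) of genes of at least 4 CPM, binned by their mean response in SUGP1 E554K and SUGP1 G603N, with quartiles as bars and the number of genes under each bin. Control follows the SUGP1 genotypes across the bins, and SF3B1 T1080I stays between -0.19 and 0.31.

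By annotation, most genes above 0 were protein coding, and fewer of those below 0 were. Of the 522 genes above 0, 487 were protein coding (93.3%, beside 51.6% of all tested genes), and none of these had a single exon, beside 2.51% of all tested protein-coding genes. The coding genes among them had a median of 13 exons and spanned 54.4 kb, beside 9 exons and 32.6 kb over all tested coding genes. Their median level was 32.9 CPM beside 15.8 CPM, and the part of the level in the calls was not tested. These traits were shared by the 1514 genes lower with PB in both SUGP1 genotypes, of which 91.1% were protein coding. The coding genes of that set had medians of 15 exons, 64.0 kb and 34.8 CPM, and 0.145% had a single exon. Of the 75 genes below 0, 31 were protein coding (41.3%), 30 were non-coding RNAs (40.0%) and 9 were pseudogenes, with a median level of 3.59 CPM. Another tested gene overlapped 53 of the 75 (70.7%, beside 52.2% of all tested genes). None of the 53 protein-coding genes that overlap them passed the test, and the median response difference of those partners was -0.02. Gene-level counts of the partners do not show where their reads fall, and whether such reads were counted to the 75 genes was not tested. The share of counts on processed pseudogenes was 1.45 to 1.66% with PB and 1.56 to 1.61% with DMSO in SF3B1 T1080I, against 1.84 to 2.23% with PB and 1.48 to 1.80% with DMSO in control, and its part in the calls was not tested.

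The edited genes and the machinery that PB binds were examined first among the gene lists. As a background for the counts of list members, 1.66% of all tested genes passed above 0 and 0.239% below, and 4.22% and 0.310% of the genes of at least 4 CPM did. The median difference was -0.03 over all tested genes and 0.07 over those of at least 4 CPM, and each list has its own median given against these. SF3B1 (ENSG00000115524, chr2:197389784-197435091) had 484, 572 and 522 CPM with PB and 480.3, 461 and 511 CPM with DMSO in SF3B1 T1080I, against 585, 575 and 504 CPM with PB and 444, 432 and 417 CPM with DMSO in control. The response of control passed (0.36, adjusted p = 0.00471), that of SF3B1 T1080I did not (0.12, adjusted p = 1), and the difference of -0.24 ± 0.12 did not pass (adjusted p = 0.494, 95% interval -0.51 to 0.02), although it passed with upper-quartile scaling (adjusted p = 0.0334) and on genes of at least 4 CPM (adjusted p = 0.0207). PHF5A and SUGP1 had differences of 0.10 ± 0.14 and 0.06 ± 0.15, neither past the test, and both changed sign with upper-quartile scaling.

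Of 28 SF3b and U2 snRNP genes, 1 passed above 0 and 1 below (3.57% each), with a median difference of -0.01. DDX42, an RNA helicase of the U2 snRNP, had 222, 297 and 258 CPM with PB and 247, 285 and 264 CPM with DMSO in SF3B1 T1080I, against 136, 139.9 and 147 CPM with PB and 217, 235 and 269 CPM with DMSO in control. Its difference was 0.72 ± 0.12 (adjusted p = 0.000566). DDX46, the human counterpart of the yeast branch-site helicase Prp5, had 258, 316 and 284 CPM with PB and 333, 319.9 and 358 CPM with DMSO in SF3B1 T1080I, against 285, 296 and 268 CPM with PB and 221, 226 and 239 CPM with DMSO in control. The genotypes overlapped under PB and stood apart under DMSO, where SF3B1 T1080I was 0.56 higher on the log2 scale. The difference of -0.55 ± 0.13 (adjusted p = 0.0194) lost its call with 4 of the 6 lines or cultures left out (adjusted p up to 0.209). With TMM no member passed among 14 U1 snRNP genes, 34 catalytic and second-step factors, 26 SR proteins and their kinases, 28 hnRNP genes and 20 factors of nonsense-mediated decay, the pathway that degrades transcripts with premature stop codons, and with upper-quartile scaling 4 SR genes and 1 U1 gene passed below 0.

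Genes that host small nucleolar RNAs are spliced to release those RNAs, and their own spliced transcripts are known substrates of nonsense-mediated decay. Of 27 such genes, 3 passed below 0 and none above (11.1%, beside 0.310% of genes of at least 4 CPM). The median difference was -0.23, with median responses of 0.06 in SF3B1 T1080I and 0.33 in control. SNHG1 (ENSG00000255717, chr11:62851988-62855914) had 187, 194 and 226 CPM with PB and 155, 161 and 192 CPM with DMSO in SF3B1 T1080I, against 425, 391.9 and 390.2 CPM with PB and 174, 170.0 and 186 CPM with DMSO in control. Each SF3B1 T1080I line moved up a little (0.27, 0.28 and 0.24), each control culture by over 1 (1.29, 1.20 and 1.07), and the difference was -0.93 ± 0.13 (adjusted p = 7.82e-05). SNHG17 and SNHG3 had differences of -0.62 ± 0.16 (adjusted p = 0.0344) and -0.47 ± 0.12 (adjusted p = 0.0421), which lost their calls with 5 and 6 of the 6 lines or cultures left out (adjusted p up to 0.214 and 0.296). The SNHG3 level differed between the mutant clones, at 107, 84.5 and 147 CPM with PB and 111, 88.8 and 144 CPM with DMSO, against 177 ± 4.3 CPM with PB and 131 ± 2.5 CPM with DMSO in control (mean ± SD, n = 3).

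Of 48 genes of mitosis and cytokinesis, 8 passed above 0 and none below (16.7%, beside 4.22% of genes of at least 4 CPM), with a median difference of 0.21. With upper-quartile scaling 4 passed, and without the pairing 1. NDC80, a subunit of the kinetochore complex that binds microtubules (ENSG00000080986, chr18:2571511-2616635), had 117, 119 and 208 CPM with PB and 123, 117 and 248 CPM with DMSO in SF3B1 T1080I lines 1, 2 and 3, against 74.6, 69.2 and 68.9 CPM with PB and 153, 161 and 144 CPM with DMSO in control. Line 3 was high in both treatments, and its response of -0.25 was still above the control responses of -1.04, -1.22 and -1.06. The difference was 1.01 ± 0.13 (adjusted p = 6.07e-05, or 0.569 without the pairing). ANLN, which encodes anillin of the contractile ring, had 164 ± 22.8 CPM with PB and 181 ± 5.78 CPM with DMSO in SF3B1 T1080I, against 73.7 ± 9.57 CPM with PB and 149.8 ± 11.8 CPM with DMSO in control (mean ± SD, n = 3 each), a difference of 0.88 ± 0.12. AURKA, a mitotic kinase, and CKAP2, a spindle protein, had differences of 0.60 ± 0.13 and 0.61 ± 0.12. With 1 line or culture left out, 2 to 5 members of the list passed, and AURKA lost its call with 3 of the 6 (adjusted p up to 0.112) and CKAP2 with 2 (up to 0.0943).

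Some genes of DNA repair and replication also passed above 0, while the replication list lay nearer the background. Of 40 genes of homologous recombination and the Fanconi pathway, 6 passed above 0 and none below (15%, beside 4.22% of genes of at least 4 CPM), with a median difference of 0.25. BLM, the helicase lost in Bloom syndrome, had 57.0, 71.6 and 68.4 CPM with PB and 64.1, 66.7 and 65.6 CPM with DMSO in SF3B1 T1080I, against 38.8, 39.0 and 34.0 CPM with PB and 69.9, 73.0 and 57.0 CPM with DMSO in control. Its difference was 0.83 ± 0.13 (adjusted p = 0.000468). RBBP8, which encodes the end-resection factor CtIP, the helicase gene BRIP1 and the recombination gene XRCC3 had differences of 0.78 ± 0.15, 0.64 ± 0.13 and 0.83 ± 0.20. Of 54 genes of DNA replication and E2F targets, 4 passed above 0 and none below (7.41%, beside 4.22%), and the median difference of 0.08 was close to the 0.07 of genes of at least 4 CPM. The 4 were CDC6 (origin licensing, 0.79 ± 0.13), POLD3 (a subunit of DNA polymerase delta, 0.82 ± 0.14), RFC1 (the clamp loader, 0.59 ± 0.12) and MCM10 (0.53 ± 0.12). CDC6 had 117, 162 and 114 CPM with PB and 121, 154 and 137 CPM with DMSO in SF3B1 T1080I, against 71.7, 69.0 and 58.1 CPM with PB and 121, 118 and 121 CPM with DMSO in control. With 1 line or culture left out, 2 to 4 members of each of these lists passed, and XRCC3 lost its call with each of the 6 (adjusted p up to 0.165). MCM10 lost its call with 5 of them (up to 0.159), and BRIP1 and RFC1 with 3 each (up to 0.1001 and 0.0636).

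A few genes that make and end transcripts also passed above 0, in 2 lists whose median differences lay near the background. With 1 line or culture left out, 1 to 2 members of each list passed. Of 34 genes of the nuclear RNA exosome and polyadenylation, 4 passed above 0 and none below (11.8%, beside 4.22% of genes of at least 4 CPM), with a median difference of 0.10 beside 0.07. PAPOLG, a nuclear poly(A) polymerase (ENSG00000115421), had 35.1, 37.3 and 31.1 CPM with PB and 34.3, 34.7 and 35.1 CPM with DMSO in SF3B1 T1080I, against 16.5, 15.01 and 14.98 CPM with PB and 36.0, 35.5 and 33.3 CPM with DMSO in control. Its difference was 1.16 ± 0.20 (adjusted p = 0.00115). ZFC3H1, which links polyadenylated nuclear RNA to the exosome, WDR33, which reads the polyadenylation signal, and PCF11, a termination factor, had differences of 0.56 ± 0.12, 0.48 ± 0.13 and 0.43 ± 0.12. WDR33 and PCF11 lost their calls with each of the 6 lines or cultures left out (adjusted p up to 0.256 and 0.306) and ZFC3H1 with 4 (up to 0.0725). Of 28 genes of transcription elongation and RNA polymerase II, 3 passed above 0 and none below (10.7%, beside 4.22%), with a median difference of 0.05, which is above the -0.03 of all tested genes and below the 0.07 of those of at least 4 CPM. CDK9, the kinase of P-TEFb, and AFF1 and AFF4, scaffolds of the super elongation complex, had differences of 0.70 ± 0.17, 0.74 ± 0.13 and 0.56 ± 0.14. CDK9 lost its call with 4 of the 6 left out and AFF4 with 5 (adjusted p up to 0.2004 and 0.232).

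Stress and signalling genes were mixed. Of 29 p53 targets, 3 passed above 0 (10.3%, beside 4.22% of genes of at least 4 CPM): BTG2, an antiproliferative gene (0.85 ± 0.16), SESN2, which encodes sestrin 2 (0.79 ± 0.18), and XPC, a damage recognition factor (0.72 ± 0.17). BTG2 differed between clones, at 41.6, 21.3 and 24.6 CPM with PB and 41.7, 20.3 and 25.7 CPM with DMSO in SF3B1 T1080I, against 15.01, 19.5 and 18.8 CPM with PB and 28.1, 34.3 and 33.2 CPM with DMSO in control, and the responses of the clones lay between -0.07 and 0.07. Of 34 genes of ATF4 and the integrated stress response, SESN2 and the cystine transporter gene SLC7A11 (0.55 ± 0.15) passed above 0 and DDIT3, which encodes the transcription factor CHOP, passed below (-0.91 ± 0.24, adjusted p = 0.0440), which is 5.88% above and 2.94% below. DDIT3 had 7.55, 7.07 and 8.19 CPM with PB and 9.23, 9.05 and 8.57 CPM with DMSO in SF3B1 T1080I, against 12.4, 10.9 and 12.6 CPM with PB and 5.74, 7.60 and 9.48 CPM with DMSO in control. DDIT3 and SLC7A11 lost their calls with each of the 6 lines or cultures left out (adjusted p up to 0.277 and 0.249), SESN2 with 5 (up to 0.144) and XPC with 3 (up to 0.155).

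Of 43 immediate early genes, BTG2 passed above 0 and KLF6 below (-0.52 ± 0.13). Of 19 genes of death receptor and NF-kB signalling, RIPK1, a kinase of the tumour necrosis factor receptor complex, passed above 0. RIPK1 had 61.4, 56.7 and 54.9 CPM with PB and 67.7, 55.1 and 59.8 CPM with DMSO in SF3B1 T1080I, against 25.9, 29.01 and 29.2 CPM with PB and 52.7, 60.3 and 55.7 CPM with DMSO in control, a difference of 0.93 ± 0.14 (adjusted p = 0.000323). SREBF1, the regulator of lipid synthesis, passed above 0 among 27 cholesterol genes (0.85 ± 0.18), and MAU2, a cohesin loader, among 15 cohesin genes (0.84 ± 0.15). MAU2 overlaps SUGP1 on the opposite strand, where reads of the pair cannot be told apart without a stated strand setting. These single calls are 2.33% of the immediate early list in each direction, 5.26% of the death receptor list, 3.70% of the cholesterol list and 6.67% of the cohesin list, all near the 4.22% of genes of at least 4 CPM above 0 except KLF6, whose background below 0 is 0.310%. SREBF1 lost its call with 2 of the 6 left out (adjusted p up to 0.0969) and KLF6 with 5 (up to 0.245).

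Of 35 type I interferon genes, IRF9 and IFI35 passed below 0 (5.71%, beside 0.239% of all tested genes) and none above. The background below 0 was 0.310% over genes of at least 4 CPM, a mean level that IFI35 did not reach. The list median of 0.09 was above that of all tested genes. IRF9 had 4.04, 2.70 and 2.74 CPM with PB and 3.63, 4.28 and 4.13 CPM with DMSO in SF3B1 T1080I, against 5.52, 7.19 and 6.96 CPM with PB and 2.85, 3.64 and 3.68 CPM with DMSO in control. IFI35 had 2.91, 3.44 and 0.618 CPM with PB and 2.00, 3.61 and 0.593 CPM with DMSO in SF3B1 T1080I lines 1, 2 and 3, against 3.77, 2.50 and 4.47 CPM with PB and 0.747, 0.713 and 1.12 CPM with DMSO in control. Both libraries of line 3 were below the other 10, and lines 1 and 2 were above the control cultures under DMSO. Its difference of -1.86 ± 0.46 (adjusted p = 0.0304) lost its call with each of the 6 left out (adjusted p up to 0.228).

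With TMM no member passed among 19 BCL2 family genes, 24 heat shock genes, 13 mitochondrially encoded mRNAs, 86 cytosolic ribosomal protein genes and 48 replication-dependent histone genes. The ribosomal protein genes had a median response of 0.12 in SF3B1 T1080I and 0.26 in control, and 2 of them passed below 0 with upper-quartile scaling. The mitochondrial mRNAs had medians of 0.01 in SF3B1 T1080I and 0.20 in control. Without the pairing, 1 member each passed in the lists of mitosis, exosome and polyadenylation, U2 snRNP, cohesin and death receptor genes, all above 0, and none in the others.

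**Figure D5:**
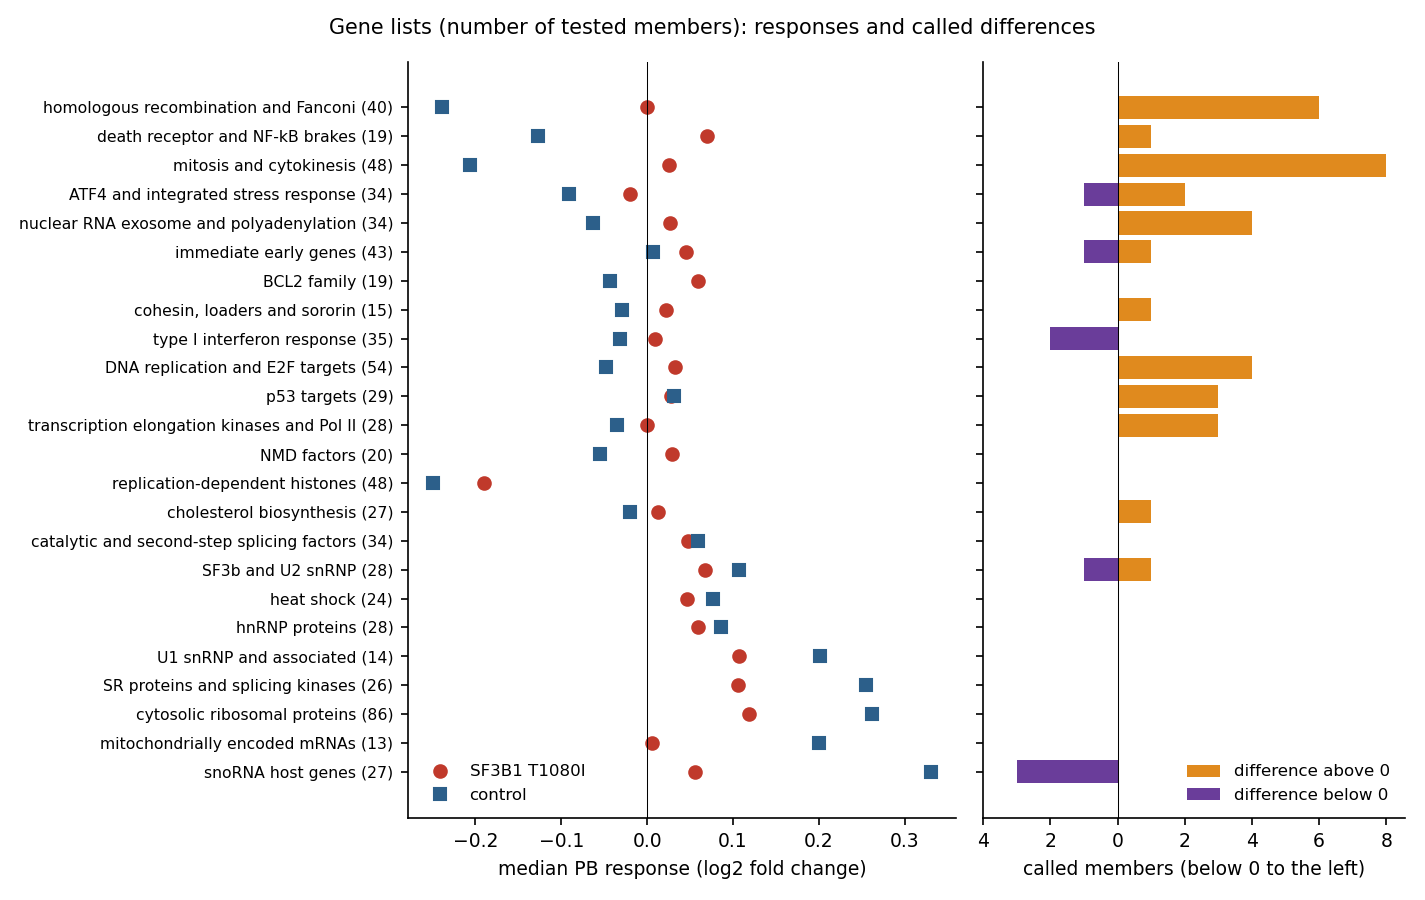
Left, median log2 response to PB of 24 gene lists in SF3B1 T1080I (red circles) and control (blue squares), with the number of tested members in brackets. Right, members that passed the test of the response difference, above 0 to the right (orange) and below 0 to the left (purple), with 8 of 48 for mitosis and 3 of 27 for the hosts of small nucleolar RNAs.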

How the data were processed

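RNA was poly(A)-selected and sequenced with a CORALL kit and paired-end 150-base reads, per the labels' protocols. The submitters' processing notes name hg38, STAR, SAMtools 1.10 and UMI-tools. For the counting program, its annotation, strand setting and handling of multi-mapping reads nothing is given in the sources used here. The authors deposited 1 table of estimated counts for 61487 genes, which are not normalized, and 65.5% of its values above 0 are not whole. Of its identifiers, 61474 were given a symbol and 58312 were found in GENCODE 29.

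Counts were rounded and tested with edgeR 4.0.16 (R 4.3.3). filterByExpr with the 10 groups left 31444 genes, and libraries were scaled by TMM. One quasi-likelihood model over all 30 libraries, which share 1 estimate of the spread, held a term for each of 15 lines or cultures and a PB term for each of 5 genotypes (10 residual degrees of freedom). P-values were adjusted by the Benjamini-Hochberg method over all tested genes. Approximate standard errors are the size of the log2 change over the square root of its F. Per-line responses are log2 CPM with a prior count of 2. The script was tested on simulated data. P-values measure the spread of the PB response between lines or cultures of a genotype, pooled over all 5 genotypes. Differences in level between lines or cultures are taken up by their own terms.

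Same-numbered mutant libraries are the same clone per the labels. In control the pairing by number was assumed, since the labels do not say that a number marks a shared culture. In control, deviations of same-numbered libraries from their group means correlated at 0.41, 0.22 and 0.45 over 11947 genes, and in SF3B1 T1080I at 0.83, 0.78 and 0.82.

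The comparison, the gene lists and the rules were chosen with earlier results of these data known. Named genes are the 3 edited genes, the 12 called genes per direction with the largest difference, a mean of at least 4 CPM and line responses that do not overlap, the genes called for PB in SF3B1 T1080I, and up to 4 called members of lowest p of each of 28 lists. Genes with a larger response in SF3B1 T1080I would also have been named. Alternatives were no pairing, the 12 libraries alone, DESeq2 1.42.0, RLE and upper-quartile scaling, other filters, protein-coding genes without overlap, and leaving out each line.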

Additional observations from a re-analysis of the deposited data

Results flagged for a closer look

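The test of the difference between the genotypes itself, edgeR's term for the PB response in SF3B1 T1080I minus that in control, singled out 597 genes and, of the genes named here, 59. Above 0, the log2 response differences were 2.43 for GOLGA2P5, 2.31 for LINC01355, 2.22 for KRCC1, 2.04 for NIPAL1, 1.99 for RSKR, 1.92 for KLRA1P, 1.82 for ZNF653, 1.79 for ENSG00000264112, 1.73 for RPL13P8, 1.72 for RBM26-AS1, 1.68 for KLF15 and 1.67 for KCNAB3. Below 0, they were -2.77 for OVGP1, -2.04 for CMYA5, -1.70 for ENSG00000269688, -1.64 for ENSG00000253667, -1.54 for RASL11A, -1.46 for ENSG00000289092, -1.33 for ENSG00000232611, -1.32 for ENSG00000264577, -1.32 for IRF9, -1.23 for ENSG00000279738, -1.14 for NOP14-AS1 and -1.09 for ZFHX3-AS1.

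Of the genes that changed in SF3B1 T1080I itself, MYOM1 differed by 0.87. List members above 0 were DDX42 at 0.72, MAU2 at 0.84, NDC80 at 1.01, ANLN at 0.88, CKAP2 at 0.61, AURKA at 0.60, CDC6 at 0.79, POLD3 at 0.82, RFC1 at 0.59, MCM10 at 0.53, BLM at 0.83, RBBP8 at 0.78, BRIP1 at 0.64, XRCC3 at 0.83, RIPK1 at 0.93, BTG2 at 0.85, SESN2 at 0.79, XPC at 0.72, SLC7A11 at 0.55, SREBF1 at 0.85, AFF1 at 0.74, CDK9 at 0.70, AFF4 at 0.56, PAPOLG at 1.16, ZFC3H1 at 0.56, WDR33 at 0.48 and PCF11 at 0.43. List members below 0 were DDX46 at -0.55, SNHG1 at -0.93, SNHG17 at -0.62, SNHG3 at -0.47, KLF6 at -0.52, DDIT3 at -0.91 and IFI35 at -1.86. In each of these genes the response of SF3B1 T1080I was smaller in size than that of control.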

How the results depend on the processing

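The response difference passed for 101 genes without the replicate block (90 above and 11 below 0), 1692 on the 12 libraries alone, 1076 with DESeq2 and 299 of the protein-coding genes without overlap, and for 210 to 395 with 1 line left out. With upper-quartile scaling 444 passed, 336 of them shared with the 597. PB changed 1 gene in SF3B1 T1080I and 1395 in control without the block, and 5486 in control on the 12 libraries alone. With 1 line left out the counts were 0 to 5 in SF3B1 T1080I and 1744 to 2855 in control. The median difference of genes lower with PB in both SUGP1 genotypes, chosen anew under each setting, was 0.43 with upper-quartile scaling and 0.48 to 0.55 with 1 line left out, and that of genes higher in both was -0.51 to -0.35. Without the block 42 of the 59 named calls were lost, and 15 were kept in every setting in which they were tested: GOLGA2P5, LINC01355, KRCC1, RSKR, KLRA1P, ZNF653, ENSG00000264112, KLF15, KCNAB3, OVGP1, ZFHX3-AS1, DDX42, MAU2, RIPK1 and PAPOLG. No named call changed direction. Of the edited genes, which did not pass, the response difference of PHF5A changed sign with upper-quartile scaling (-0.043) and ran from -0.0049 to 0.23 with 1 line left out. That of SUGP1 changed sign with upper-quartile scaling (-0.084) and on genes of at least 4 CPM (-0.015), and ran from -0.11 to 0.19 with 1 line left out. The cause was not tested.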

Other observations

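The share of tested genes with a response difference ran from 0.943% to 3.95% over the chromosomes, highest on chromosome 20 and lowest on chromosome X, and the median difference of genes of at least 4 CPM ran from 0.00 to 0.13. Under DMSO, genes of chromosome 21 stood lower in all 3 SF3B1 T1080I lines than in control, with medians of -0.28, -0.27 and -0.23, and genes of chromosome 8 stood higher, at 0.11, 0.12 and 0.07. Genes of chromosome 15 (-0.12, -0.11 and -0.05) and chromosome 4 (-0.09, -0.08 and -0.0025) also stood lower in all 3 lines, and the medians of the other chromosomes lay between -0.04 and 0.10. The difference in response passed for 7 of 388 genes of chromosome 21 (1.80%) and 24 of 1141 genes of chromosome 8 (2.10%), beside 1.90% of all tested genes.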
